A study of Mus musculus with 9 samples.

Results

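The genes described are 38 that act in DNA replication or in mitosis, taken from a list of symbols by a rule that uses no measured value, though the list was drawn up with earlier results of these data known, and 37 of these were measured among the 19938 genes that the arrays named. The list holds 15 replication genes (Ccne1, Ccne2, Cdc6, Cdt1, Gins2, Mcm2 to Mcm7, Pcna, Rrm1, Rrm2 and Tyms) and 23 mitosis genes, of which Ccnb1 was not analysed here. RNA was measured on 9 Affymetrix arrays of conventional dendritic cells (cDC), sort-purified from spleens of 129SvEv/Tac mice, to find the genes that BATF proteins control in these cells. Of these, 8 arrays held cDC2, which are best known for priming CD4 T cells, from wild-type mice (WT) or from Batf-/- Batf3-/- mice (DKO), with 2 arrays for each genotype at rest and 2 after activation. Activation meant 1 h with 100 ng/ml IFN-gamma, followed by 3 h in which E. coli LPS (1 µg/ml) was present. The remaining array held resting WT cDC1, which are best known for cross-priming CD8 T cells, so no cDC1 value has a replicate. The labels give neither age nor pooling, and do not say that replicate arrays are separate mice, so a p-value here reflects only the variation among these samples, possibly technical. They also leave out whether resting cells were cultured for as long as activated ones.

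A dividing cell copies its DNA in S phase and parts the copies in mitosis. Cyclin E starts S phase, the MCM helicase is loaded and opened at replication origins, and the enzymes of nucleotide synthesis supply the building blocks. Cyclins A and B with Cdk1 then drive the cell into mitosis, where Polo and Aurora kinases, kinesin motors and the spindle checkpoint order the chromosomes. Transcription of the first group is classically tied to E2F factors at the start of S phase, and that of the second to paired CCAAT boxes and the cell cycle homology region (CHR), through which the DREAM complex represses and B-MYB and FOXM1 activate in G2. In spleen, cDC come from dividing precursors, and a small share of the mature cells is known to go on dividing.

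The promoters of the members were searched for these elements as letters, and the windows printed here are a choice made by hand. Ccnb2, Top2a, Plk1, Kif11, Mcm2 and Rrm2 are called in a later comparison, and Mcm6 is a replication gene of wide range. RefSeq windows (assembly GRCm38.p6) from 250 bases before to 50 bases after the start were found for 31 members. The searched letters, on both strands, were TTTGAA or TTTAAA for the CHR, CCAAT for the CCAAT box, and TTTCCCGC, TTTCGCGC, TTTGCCGC or TTTGGCGC for E2F. Each window is printed 5′ to 3′ on the strand of its gene, from 250 bases before to 20 bases after the start, with these letters in capitals. They lie at chr9:70421535-70421804 (Ccnb2, minus strand), chr11:99024170-99024439 (Top2a, minus), chr7:122159185-122159454 (Plk1, plus), chr19:37376132-37376401 (Kif11, plus), chr6:88898761-88899030 (Mcm2, minus), chr12:24708004-24708273 (Rrm2, plus) and chr1:128359686-128359955 (Mcm6, minus).
Ccnb2: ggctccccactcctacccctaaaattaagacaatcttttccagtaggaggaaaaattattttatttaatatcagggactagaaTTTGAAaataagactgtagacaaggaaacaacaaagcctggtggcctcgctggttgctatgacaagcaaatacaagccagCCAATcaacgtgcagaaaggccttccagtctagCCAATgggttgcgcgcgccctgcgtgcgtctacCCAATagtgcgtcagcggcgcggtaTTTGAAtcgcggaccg
Top2a: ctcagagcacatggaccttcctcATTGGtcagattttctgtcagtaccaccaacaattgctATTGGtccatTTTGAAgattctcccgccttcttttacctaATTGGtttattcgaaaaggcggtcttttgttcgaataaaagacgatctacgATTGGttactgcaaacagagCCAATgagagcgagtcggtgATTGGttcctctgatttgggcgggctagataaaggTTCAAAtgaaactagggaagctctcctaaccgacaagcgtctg
Plk1: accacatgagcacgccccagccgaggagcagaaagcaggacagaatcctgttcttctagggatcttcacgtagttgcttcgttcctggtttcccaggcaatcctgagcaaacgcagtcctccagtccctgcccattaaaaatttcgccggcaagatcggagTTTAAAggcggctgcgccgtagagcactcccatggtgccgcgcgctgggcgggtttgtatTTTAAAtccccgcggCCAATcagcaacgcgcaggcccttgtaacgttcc
Kif11: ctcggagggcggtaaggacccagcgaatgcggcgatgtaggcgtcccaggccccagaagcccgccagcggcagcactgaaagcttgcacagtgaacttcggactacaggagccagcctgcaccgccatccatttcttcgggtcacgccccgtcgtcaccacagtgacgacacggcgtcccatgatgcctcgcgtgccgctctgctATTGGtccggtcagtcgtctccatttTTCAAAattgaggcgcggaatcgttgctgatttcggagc
Mcm2: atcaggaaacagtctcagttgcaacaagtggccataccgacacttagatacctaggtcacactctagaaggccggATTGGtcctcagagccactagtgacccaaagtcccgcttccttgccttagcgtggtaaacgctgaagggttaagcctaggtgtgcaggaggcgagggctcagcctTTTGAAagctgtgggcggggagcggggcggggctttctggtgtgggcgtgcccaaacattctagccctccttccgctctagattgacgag
Rrm2: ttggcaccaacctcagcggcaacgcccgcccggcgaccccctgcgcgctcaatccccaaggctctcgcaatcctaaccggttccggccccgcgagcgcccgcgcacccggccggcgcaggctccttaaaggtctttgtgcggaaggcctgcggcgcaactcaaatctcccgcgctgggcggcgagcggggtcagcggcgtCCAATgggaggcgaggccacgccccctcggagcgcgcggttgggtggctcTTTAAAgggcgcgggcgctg
Mcm6: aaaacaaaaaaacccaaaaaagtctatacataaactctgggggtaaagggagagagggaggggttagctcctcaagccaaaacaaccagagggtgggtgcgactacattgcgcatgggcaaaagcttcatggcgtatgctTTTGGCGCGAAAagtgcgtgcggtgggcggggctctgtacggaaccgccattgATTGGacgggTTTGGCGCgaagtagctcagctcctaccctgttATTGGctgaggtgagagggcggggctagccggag

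Ccnb2, Top2a, Plk1 and Kif11 each hold CHR and CCAAT letters near the start and no E2F letters, whereas Mcm6 holds E2F and CCAAT letters and no CHR letters. Mcm2 and Rrm2, from the replication list, hold a CHR and a CCAAT match. The printed windows do not show every pattern among the mitosis genes. Cdk1 holds CHR, CCAAT and E2F letters, Nusap1 holds none of them, and Birc5 holds CHR but no CCAAT letters. Over all members with a window, 17 of 19 mitosis genes (89.5%) held CHR letters, against 4 of 12 replication genes (33.3%) and 30.6% of the 27025 genes with a window. CCAAT letters stood in 17 of 19 mitosis genes, in 8 of 12 replication genes (66.7%) and in 41.1% of all genes. Both elements together were found in 16 of 19 mitosis genes (84.2%), 3 of 12 replication genes and 13.4% of all genes. E2F letters stood in 6 of 12 replication genes, namely Mcm3, Mcm5, Mcm6, Mcm7, Cdt1 and Cdc6, but in 1 of 19 mitosis genes (Cdk1, 5.26%) and 2.6% of all genes. Letters of different elements overlapped in 2 member windows. A match describes the letters alone, and binding was not measured.

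The sorted populations differed in most markers of their labels. Of 7 cDC2 markers measured, 6 were lower on the cDC1 array than on both WT resting cDC2 arrays. Cd209a was not, and 4 of the 7 reached the brightness threshold given below. Sirpa, a cDC2 surface receptor, read between 9.05 and 10.30 (log2 intensity) on the cDC2 arrays and 7.05 on the cDC1 array, while the cDC1 receptors Xcr1 and Clec9a read at most 4.73 and 4.32 on cDC2 arrays and 9.33 and 8.67 on the cDC1 array. Batf, a deleted gene, read between 5.31 and 5.44 in DKO and between 6.74 and 9.07 in WT cDC2, and Batf3 between 6.43 and 7.17 and between 7.58 and 9.92. WT resting replicate 2 stood apart by its interferon genes: 7 of them averaged 11.62 there, 10.72 on the other WT resting array, and 10.01 and 9.67 on the DKO resting arrays. Of the 5 B cell genes measured, 0 reached the brightness threshold in any group, and of the 4 erythroid genes 1 did. All 6 macrophage and all 5 plasma cell genes reached it, as did 3 of 4 monocyte and 3 of 5 plasmacytoid DC genes. So did 2 of 4 T cell, 2 of 5 NK cell and 2 of 5 neutrophil genes. That threshold, a group mean above 5.94 on the log2 scale, was passed by 10728 genes and by 32 of the 37 members measured. Ccne2, Cdc6, Cenpe, Cenpf and Prc1 did not pass it in any group and were not tested. Bub1, Bub1b, Kif20a, Mcm7 and Rrm2 passed it only through the cDC1 array. Kif11 and Kif23 passed it there and, among cDC2 groups, only in resting DKO cells. Medians of a list below run over all its measured genes, tested or not.

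Across the arrays the mitosis genes moved over a wider span than the replication genes. With each gene set to its own mean over the 9 arrays, the mitosis genes averaged 1.09 (log2) on the cDC1 array and the replication genes 0.48. The mitosis genes averaged 0.03 and 0.48 on the DKO resting arrays (replicates 1 and 2), -0.37 and -0.06 on the WT resting arrays, -0.26 and -0.21 on the DKO activated arrays and -0.44 and -0.27 on the WT activated arrays. The replication genes averaged 0.01 and 0.14, -0.11 and 0.12, -0.18 and -0.16, and -0.24 and -0.05 in the same order. In both lists the cDC1 array stood highest, and WT activated replicate 1 lowest. Since a bulk sample sums over its cells, a lower share of dividing cells and less of these RNAs in each cell cannot be told apart. Tpx2 went against the rest of its list, as the plot of every member by array shows.

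**Figure D1:**
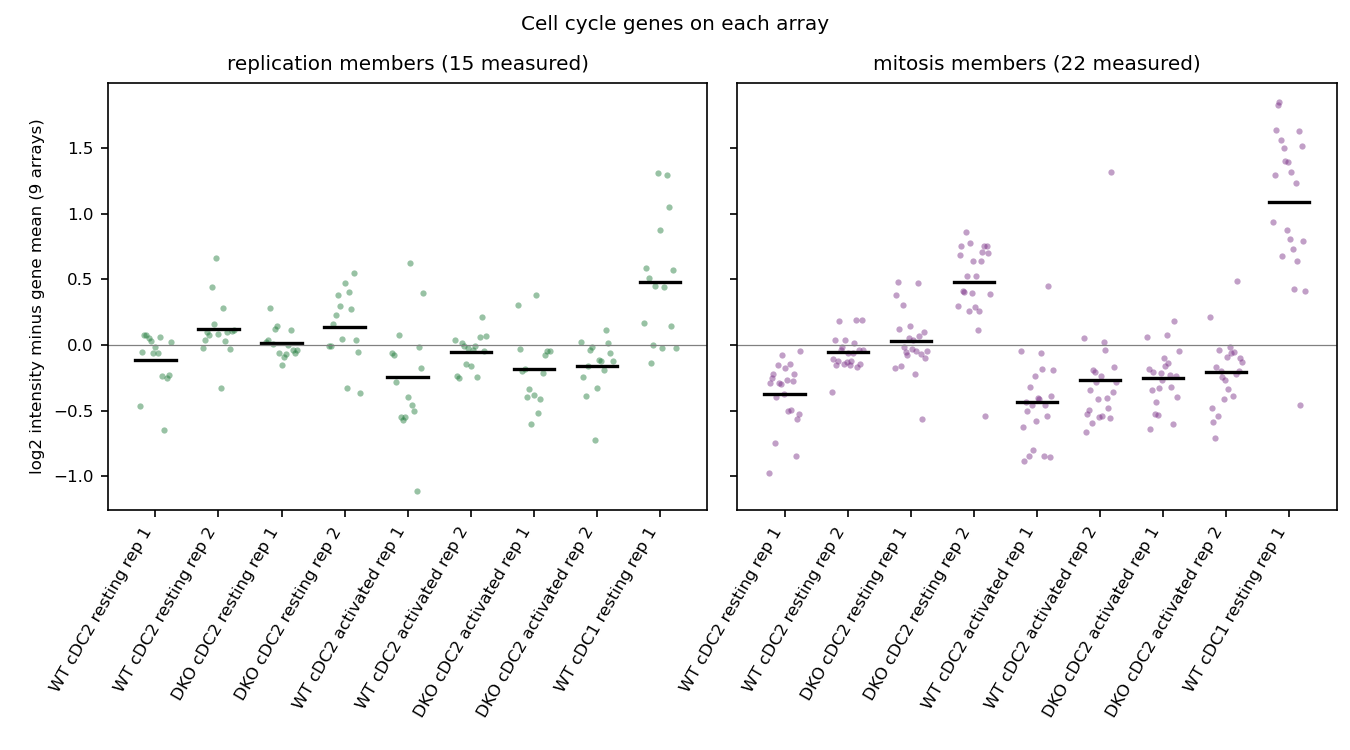
Log2 intensity of every measured member minus its own mean over the 9 arrays, by array (rep, replicate), for 15 replication genes (left, green) and 22 mitosis genes (right, purple). Each point is a gene and each black bar the mean of the list, which is highest on the cDC1 array at 0.48 and 1.09; the mitosis gene far above its list on the WT activated arrays is Tpx2.

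The widest ranges among mitosis genes were those of Cdk1, Ccnb2, Ccna2 and Plk1. Cdk1, the kinase that drives entry into mitosis, read 8.53 (log2 intensity) on the cDC1 array, 5.93 and 6.56 on the WT resting arrays, 6.52 and 7.08 on the DKO resting arrays, 6.17 and 6.33 on the WT activated arrays and 6.47 and 6.51 on the DKO activated arrays. Its lowest array was WT resting replicate 1, and all cDC2 arrays lay more than 1 log2 unit below the cDC1 array. Ccnb2, a B-type cyclin and partner of Cdk1, read 8.44 in cDC1, 6.39 and 6.46 in WT resting, 6.74 and 7.03 in DKO resting, 6.19 and 6.12 in WT activated and 6.27 and 5.91 in DKO activated cells. Here the DKO resting arrays were the highest of the cDC2 arrays and the activated arrays of both genotypes the lowest.

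Ccna2, the A-type cyclin of S phase and G2, read 8.23 in cDC1, 6.34 and 6.63 in WT resting, 7.07 and 7.35 in DKO resting, 5.71 and 6.07 in WT activated and 5.95 and 6.01 in DKO activated cells. Again the DKO resting arrays were the highest of the cDC2 arrays, and the activated arrays of the genotypes overlapped. Plk1, the Polo-like kinase of mitotic entry and spindle assembly, read 7.88 in cDC1, 5.93 and 6.51 in WT resting, 6.62 and 7.18 in DKO resting, 5.47 and 5.73 in WT activated and 5.79 and 5.78 in DKO activated cells. WT resting replicate 2 lay just below DKO resting replicate 1, and the resting genotypes did not overlap.

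Among replication genes the widest ranges were those of Tyms, Mcm6, Rrm2 and Mcm7. Tyms, thymidylate synthase, read 8.77 in cDC1, 7.08 and 7.82 in WT resting, 7.84 and 8.27 in DKO resting, 6.61 and 7.78 in WT activated and 7.51 and 7.84 in DKO activated cells. In WT cells of both states replicate 2 stood well above replicate 1, and the WT arrays overlapped between states. Mcm6, a subunit of the MCM helicase, read 7.99 in cDC1, 6.62 and 7.35 in WT resting, 6.62 and 6.73 in DKO resting, 6.14 and 6.66 in WT activated and 6.08 and 5.96 in DKO activated cells. WT replicate 2 was again the higher array in each state, and the genotypes lay close together at replicate 1.

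Rrm2, the small subunit of ribonucleotide reductase, read 7.08 in cDC1, 5.55 and 5.82 in WT resting, 5.79 and 6.06 in DKO resting, 5.28 and 5.54 in WT activated and 5.37 and 5.60 in DKO activated cells. All cDC2 arrays lay far below the cDC1 array. Mcm7, another helicase subunit, read 6.62 in cDC1, 5.72 and 5.83 in WT resting, 5.59 and 6.22 in DKO resting, 5.35 and 5.58 in WT activated and 5.36 and 5.42 in DKO activated cells. Its resting genotypes overlapped fully, with both WT arrays between the DKO arrays.

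**Figure D2:**
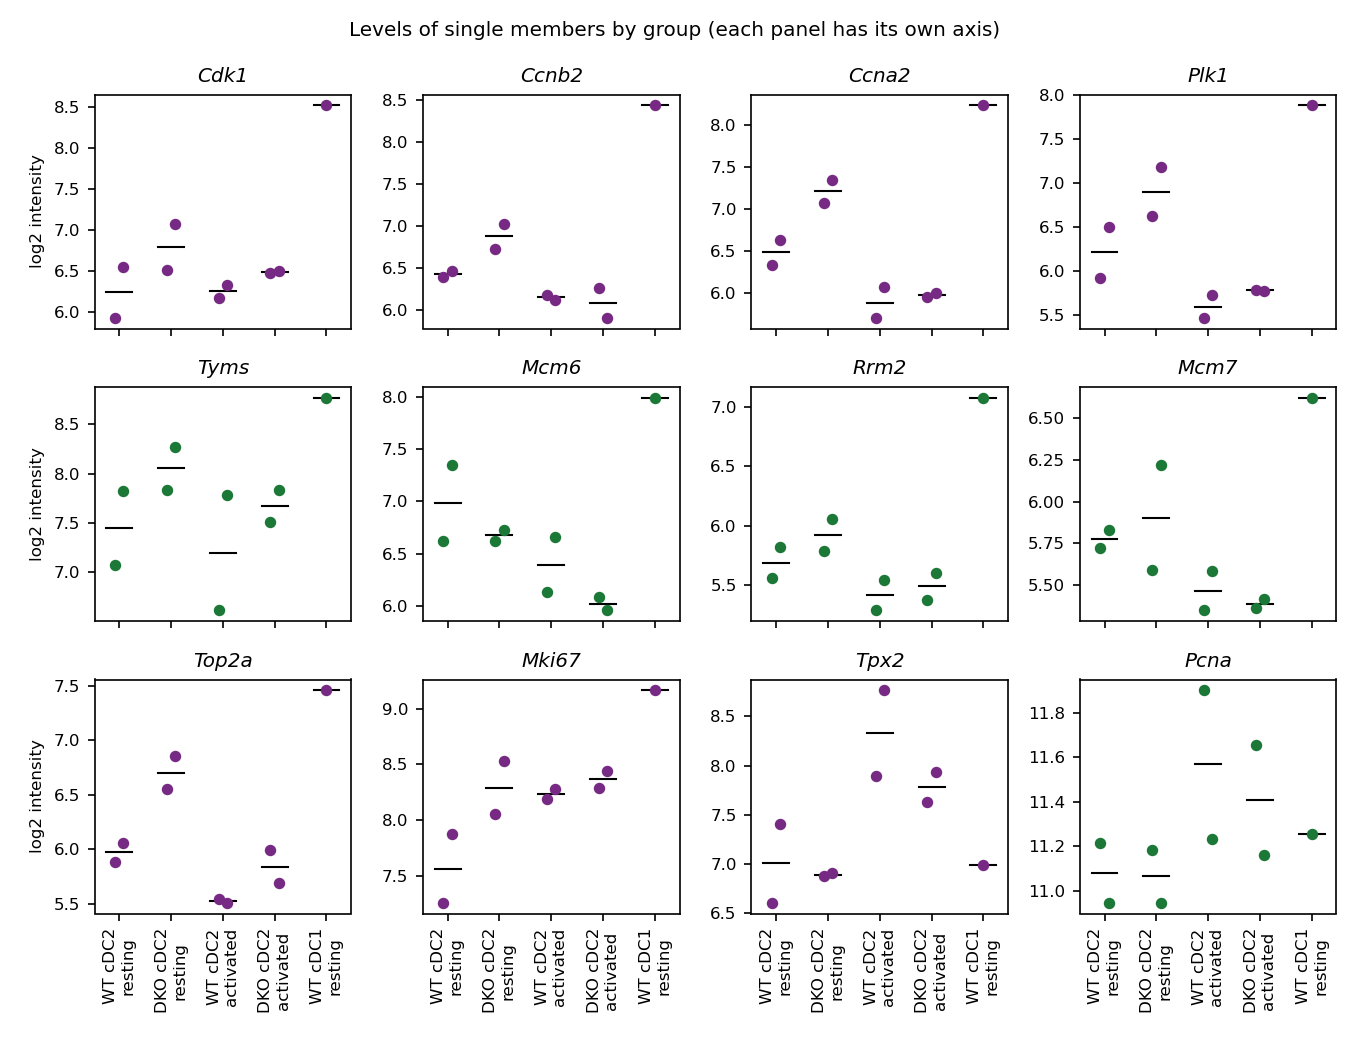
Log2 intensity of members by group, each point 1 array and each bar a group mean, for the 8 members of widest range and for Top2a, Mki67, Tpx2 and Pcna (purple, mitosis; green, replication; each panel has its own axis). The single cDC1 array is the highest for Ccna2 (8.23) and Mcm6 (7.99) but not for Tpx2, whose highest array is WT activated replicate 2 (8.77).

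Resting WT cDC1 were compared with resting WT cDC2 to set the level of the members in the other conventional subset. Mitosis genes stood far higher in cDC1: 15 of the 19 tested rose past the threshold (limma over all genes, Benjamini-Hochberg adjusted p below 0.05) and 0 fell. Of the 13 replication genes tested, 1 rose, Rrm2, and 0 fell. Rrm2, Bub1 and Bub1b, all called, passed the brightness threshold only through the cDC1 array, where they were high. Over all genes tested, 7.08% were called higher in cDC1 and 6.56% lower, so the count of 1 replication gene in 13 was near the background. The median difference over the 22 measured mitosis genes was 1.51 (log2) and that over the 15 replication genes 0.41, against -0.01 over all genes tested. Cdk1 differed most, at 2.28 ± 0.31 (log2 difference ± SE, 4.87-fold, adjusted p = 0.0078), with 8.53 on the cDC1 array against 5.93 and 6.56.

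Cyclins and kinases were among the mitosis genes called. Ccnb2 was higher by 2.02 ± 0.19 (4.04-fold, adjusted p = 0.0025), and Ccna2 by 1.74 ± 0.21 (adjusted p = 0.0053). Plk1 rose by 1.67 ± 0.31 (adjusted p = 0.0187). Aurkb, the kinase of the chromosomal passenger complex, which corrects faulty spindle attachments, read 8.35 on the cDC1 array against 6.56 and 6.84, a difference of 1.65 ± 0.23 (adjusted p = 0.0080). Its partners in that complex moved with it: Birc5 (survivin) read 7.92 against 6.15 and 6.40, a difference of 1.65 ± 0.21 (adjusted p = 0.0067), and Cdca8 (borealin) was also called, at 7.49 against 5.91 and 6.03. Aurka, the Aurora kinase of the spindle poles, read 7.40 against 6.57 and 6.68 and did not pass (adjusted p = 0.0985).

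Motors and microtubule proteins of the spindle were mostly higher as well. Nusap1, which bundles spindle microtubules, read 7.75 against 5.66 and 6.08, a difference of 1.87 ± 0.33 (adjusted p = 0.0167). Kif23, a kinesin of the central spindle needed for cytokinesis, read 7.68 against 5.83 and 5.89, a difference of 1.82 ± 0.33 (adjusted p = 0.0177). Both lay above every cDC2 array of the series. Kif11, the motor that pushes spindle poles apart, also rose, at 6.63 against 4.91 and 5.42. Kif20a, a second kinesin of the central spindle, read 6.05 against 5.14 and 5.60 and did not pass (adjusted p = 0.194). Tpx2, which activates Aurora A on the spindle, read 6.99 against 6.60 and 7.41, so its cDC1 array lay between the WT resting arrays (difference -0.02).

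The other mitosis genes called higher were the proliferation marker Mki67 (9.17 against 7.26 and 7.87), the topoisomerase Top2a (7.46 against 5.88 and 6.06), the checkpoint kinase Bub1 (5.99 against 4.29 and 4.44), its relative Bub1b (6.14 against 5.19 and 5.31) and Cdc20, the activator of the anaphase-promoting complex (7.13 against 6.15 and 6.27). Their differences ran from 0.89 to 1.62. Ube2c, the conjugating enzyme of the same complex, read 6.52 against 6.06 and 6.07 and did not pass (adjusted p = 0.157). The untested Cenpe, Cenpf and Prc1, 2 kinetochore proteins and a bundler of midzone microtubules, were dim on all arrays but stood above both WT resting arrays in cDC1, by 1.04, 0.53 and 0.96.

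Replication genes gave a mixed picture in the same comparison. Rrm2 was higher by 1.40 ± 0.20 (2.63-fold, adjusted p = 0.0091). Its partner Rrm1, the large subunit of ribonucleotide reductase, read 6.47 against 6.09 and 6.31 and differed by 0.27 (adjusted p = 0.602). The helicase subunits split: Mcm6 differed by 1.01 ± 0.33 (adjusted p = 0.0946), Mcm7 by 0.85 ± 0.25 (adjusted p = 0.0770), Mcm2 by 0.42 ± 0.13 (adjusted p = 0.0768) and Mcm5 by 0.36 (adjusted p = 0.335), whereas Mcm3 and Mcm4 stood at -0.21 and -0.25. With all arrays in the fit, none of these passed without the replicate number as a block. When WT resting replicate 2 was left out, the Mcm6 difference was 1.37. Tyms, at 1.32 ± 0.52 (adjusted p = 0.150), carried a wide error because its WT resting replicates lay far apart.

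The remaining replication genes did not pass or were not tested. Pcna, the sliding clamp, read 11.26 in cDC1 against 11.21 and 10.95, a difference of 0.17. A second transcript cluster of Pcna read nearly the same on every array, and the copies cannot be told apart. Gins2, of the GINS complex that activates the helicase, differed by 0.29, and Cdt1, which loads it, by -0.09. Ccne1, cyclin E1, differed by 0.41 (adjusted p = 0.248), and the untested Ccne2 and Cdc6 by 0.60 and 0.63, more than the list median. With no brightness filter, Ccne2 (adjusted p = 0.0392) and the mitosis gene Cenpe (0.0312) were called higher in cDC1, and Bub1 was no longer called.

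With a single cDC1 array, the error of these differences is that of the cDC2 arrays. Fewer members, and fewer of all genes, were called higher when a WT resting array was left out. Over all alternatives that tested the gene, these among them, the difference of Cdk1 ran from 1.97 to 2.60. That of Ccnb2 ran from 1.835 to 2.08 and that of Rrm2 from 1.165 to 1.53. A brightness filter set on the mean over all arrays was chosen after seeing the data. With it, 12 members were called higher, where 601 of 9944 genes tested were. These 12 were all mitosis genes, without Bub1, Bub1b and Kif11, and Rrm2 was not called. With the replicate number as a block, 22 members were called higher, 17 mitosis and 5 replication genes, where 15.9% of all genes tested were. The members gained in that fit were Aurka (adjusted p = 0.0097), Kif20a (0.0346), Mcm2 (0.0284), Mcm6 (0.0205), Mcm7 (0.0125) and Tyms (0.0072). The precursor list was higher on average: the 6 of 7 markers measured averaged 6.85 on the cDC1 array and 6.33 and 6.22 on the WT resting cDC2 arrays. Only Kit and Flt3 reached the brightness threshold. Flt3, which is also a general cDC marker, read 10.02 against 8.19 and 8.72. Siglech did not rise, at 5.83 against 5.97 and 5.81, and Cd34, Mpo and Elane stood at or below 5.73 on all arrays. Other lists had lower averages in cDC1. The 5 plasmacytoid DC markers averaged 7.09 against 7.84 and 8.24, and the 6 macrophage markers 6.81 against 7.06 and 7.23. The 4 of 5 monocyte markers measured averaged 6.08 against 6.76 and 6.46. The part of these lists in the result was not tested.

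**Figure D3:**
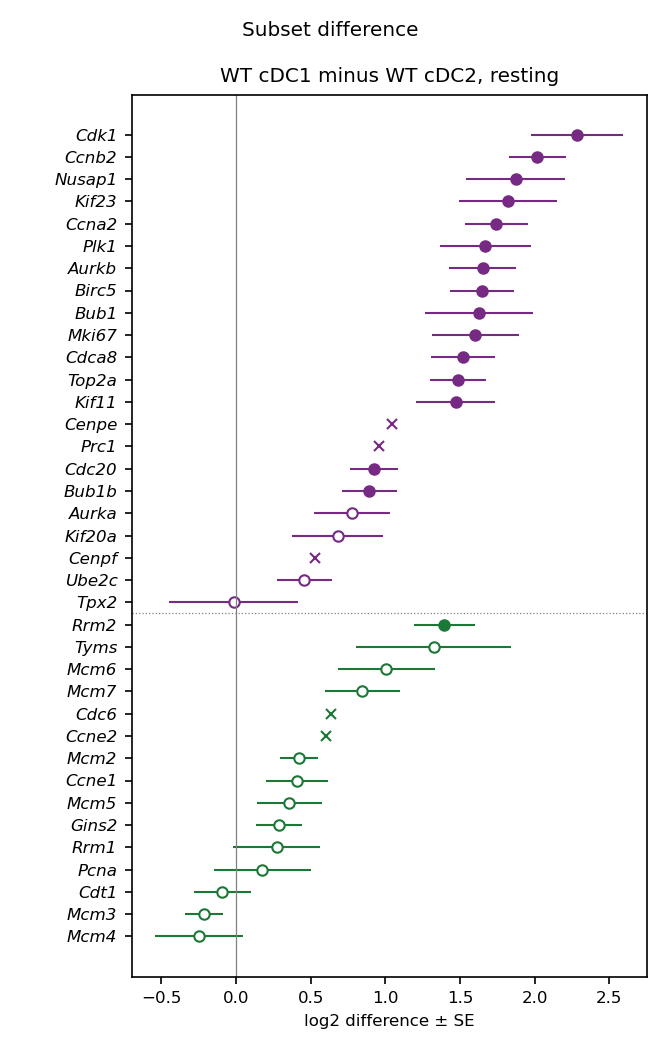
Difference between resting WT cDC1 (1 array) and resting WT cDC2 (2 arrays) for each measured member, in log2 units with its SE; purple, mitosis genes; green, replication genes; filled, past the threshold; open, tested and not past it; crosses, not tested. Cdk1 (2.28) and Ccnb2 (2.02) lead the mitosis genes, and Rrm2 (1.40) is the filled replication gene.

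Genes of the cell cycle outside the list showed a like split in their counts. Over all genes tested, 7.08% were called higher and 6.56% lower, shares that the G1 and G0 regulators given below exceeded only a little. Of 33 other mitosis genes tested, 18 were higher in cDC1 and 0 lower, with a median of 0.85 over the 49 measured. Cdca3 (1.94 ± 0.35), the kinetochore scaffold Knl1 (1.83 ± 0.34), the abscission protein Cep55 (1.79 ± 0.34) and the checkpoint protein Mad2l1 (1.70 ± 0.17) led them. Of 27 other replication genes tested, 5 were higher and 0 lower, with a median of 0.30: Gmnn, which inhibits Cdt1 (1.20 ± 0.17), the primase subunit Prim1 (0.92 ± 0.12), Dbf4, the partner of the Cdc7 kinase (0.88 ± 0.15), the chromatin assembly subunit Chaf1a (0.63 ± 0.15) and Mcm10 (0.62 ± 0.12). Of 38 regulators of G1 and G0 tested, 5 were higher, among them the stress gene Gadd45a (2.43 ± 0.20), Fbxo5, which inhibits the anaphase-promoting complex, (1.75 ± 0.26) and the repressor E2f8 (1.46 ± 0.23). The 4 lower were cyclin D2 (Ccnd2, -3.20 ± 0.63), the inhibitor Cdkn2b (-1.46 ± 0.16), the retinoblastoma gene Rb1 (-1.10 ± 0.13) and Cdk6 (-1.06 ± 0.27). The adjusted p-values of these genes by limma ran from 0.0017 to 0.0490.

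Activated DKO cDC2 were compared with resting DKO cDC2. Of the members tested, 6 fell and 0 rose: 5 mitosis genes of 19 and 1 replication gene of 13. Over all genes tested, 7.90% were called lower and 5.82% higher, so the count of 1 replication gene in 13 was near the background. Ccna2 fell most, from 7.07 and 7.35 to 5.95 and 6.01, a change of -1.23 ± 0.17 (2.35-fold lower, adjusted p = 0.0096). Plk1 fell from 6.62 and 7.18 to 5.79 and 5.78, a change of -1.12 ± 0.25 (adjusted p = 0.0355). For both genes the activated arrays lay close together and well below the resting ones. Top2a, which untangles sister chromatids, fell from 6.55 and 6.86 to 5.99 and 5.69, a change of -0.86 ± 0.15 (adjusted p = 0.0183).

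Kif11 fell from 5.88 and 6.04 to 5.18 and 5.02, a change of -0.86 ± 0.22 (adjusted p = 0.0473). Among cDC2 groups Kif11 passed the brightness threshold only in resting DKO cells, where it was high, with a mean of 5.96. Its call was lost with no brightness filter, with quantile normalization and with arrays centred on their medians. Ccnb2 fell from 6.74 and 7.03 to 6.27 and 5.91, a change of -0.79 ± 0.16 (adjusted p = 0.0246). The resting and activated arrays were apart for each of these genes. Mcm2, of the MCM helicase, was the replication gene that fell, from 6.92 and 6.80 to 6.44 and 6.25, a change of -0.51 ± 0.10 (1.43-fold lower, adjusted p = 0.0258). Its error was the smallest of the 6.

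The medians were -0.54 for mitosis and -0.38 for replication genes, against -0.09 over all genes tested. The activated arrays lay below both resting arrays for 17 of 22 mitosis and 9 of 15 replication genes measured, and for 26.0% of all genes. At an unadjusted p below 0.05, 15 members were lower and 1, Tpx2, was higher, where 20.3% and 11.1% of all genes were. Just beyond the threshold stood Birc5, at 6.67 and 7.16 resting against 6.26 and 6.26 activated (adjusted p = 0.0556), and Bub1b, at 5.32 and 5.67 against 5.05 and 4.85 (adjusted p = 0.0607). Mki67 and Gins2 stood near 0, at 0.07 and -0.03. Mki67 read 8.05 and 8.53 at rest and 8.29 and 8.44 after activation, with overlap, and Gins2 read 6.77 and 6.85 against 6.73 and 6.83.

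These calls rested on few arrays. Over all alternatives that tested the gene, the change of Ccna2 lay between -1.37 and -1.05 and that of Plk1 between -1.40 and -0.84. Top2a lay between -1.02 and -0.71, Ccnb2 between -0.97 and -0.61, Kif11 between -0.95 and -0.64 and Mcm2 between -0.61 and -0.42. Most of the 6 calls were lost whichever DKO array was left out, and other members were gained without DKO resting replicate 1. Each such fit leaves 1 array in a group. Fewer of all genes were then called lower too, so a lost call is no property of these genes alone. With the replicate number as a block, 21 members were called lower, 14 mitosis and 7 replication genes, and 1, Tpx2, higher, where 25.0% of all genes were called lower and 13.0% higher. In that fit the share among the 32 members tested was thus well above the background for falls but not for rises. The 5 general cDC markers, all above the brightness threshold, averaged 10.81 and 10.89 on the resting and 10.49 and 10.45 on the activated DKO arrays, and their part in the result was not tested.

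The same comparison in WT cDC2 gave no call among the members. By limma, 0 of 32 passed in either direction, while 3.97% of all genes were called higher and 6.57% lower. At an unadjusted p below 0.05, 5 members were lower and 2 higher, where 20.5% and 9.94% of all genes were, so neither share among the members was above the background. Ccna2 read 6.34 and 6.63 at rest and 5.71 and 6.07 after activation, a difference of -0.59 ± 0.17 (adjusted p = 0.0769). Mcm2 read 6.72 and 6.73 against 6.36 and 6.38, a difference of -0.35 ± 0.10 (adjusted p = 0.0781). Top2a read 5.88 and 6.06 against 5.54 and 5.51, a difference of -0.45 ± 0.15 (adjusted p = 0.110). In all of these the activated arrays lay below the resting ones.

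Medians in WT were -0.26 for mitosis and -0.25 for replication genes, against -0.07 over all genes tested. The activated arrays lay below both resting arrays for 12 of 22 mitosis and 7 of 15 replication genes, and for 23.1% of all genes. With the replicate number as a block, 7 members passed as lower (Ccna2, Plk1, Mcm2, Mcm4, Mcm5, Rrm1 and Rrm2) and 3 as higher (Mki67, Tpx2 and Pcna). In that fit, 23.9% of all genes were called lower and 11.4% higher, so both shares among the 32 members tested were near the background. Among the lower members were Mcm4, at 6.65 and 7.04 against 6.05 and 6.59, and Mcm5, at 8.04 and 8.17 against 7.44 and 7.86, 2 further subunits of the helicase whose replicate 2 was the higher array in each state.

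A few members were higher after activation. Tpx2 read 6.60 and 7.41 in resting and 7.90 and 8.77 in activated WT cells, a difference of 1.32 ± 0.35 (2.50-fold, adjusted p = 0.0643), and 6.88 and 6.90 against 7.63 and 7.94 in DKO cells, 0.89 ± 0.35 (adjusted p = 0.143). Its arrays did not overlap between states in either genotype. Mki67 read 7.26 and 7.87 at rest and 8.19 and 8.28 after activation in WT, a difference of 0.67 ± 0.24 (adjusted p = 0.122). Pcna read 11.21 and 10.95 against 11.90 and 11.23 in WT, a difference of 0.49, and 11.18 and 10.95 against 11.65 and 11.16 in DKO, 0.34. For Pcna replicate 1 was the higher array in every cDC2 group. Gins2 in WT read 6.56 and 6.78 against 6.79 and 7.02, a difference of 0.23 ± 0.12 (adjusted p = 0.261). Ccne1 and Cdt1 stood at 0.23 and 0.16 in WT and at 0.16 and 0.12 in DKO.

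**Figure D4:**
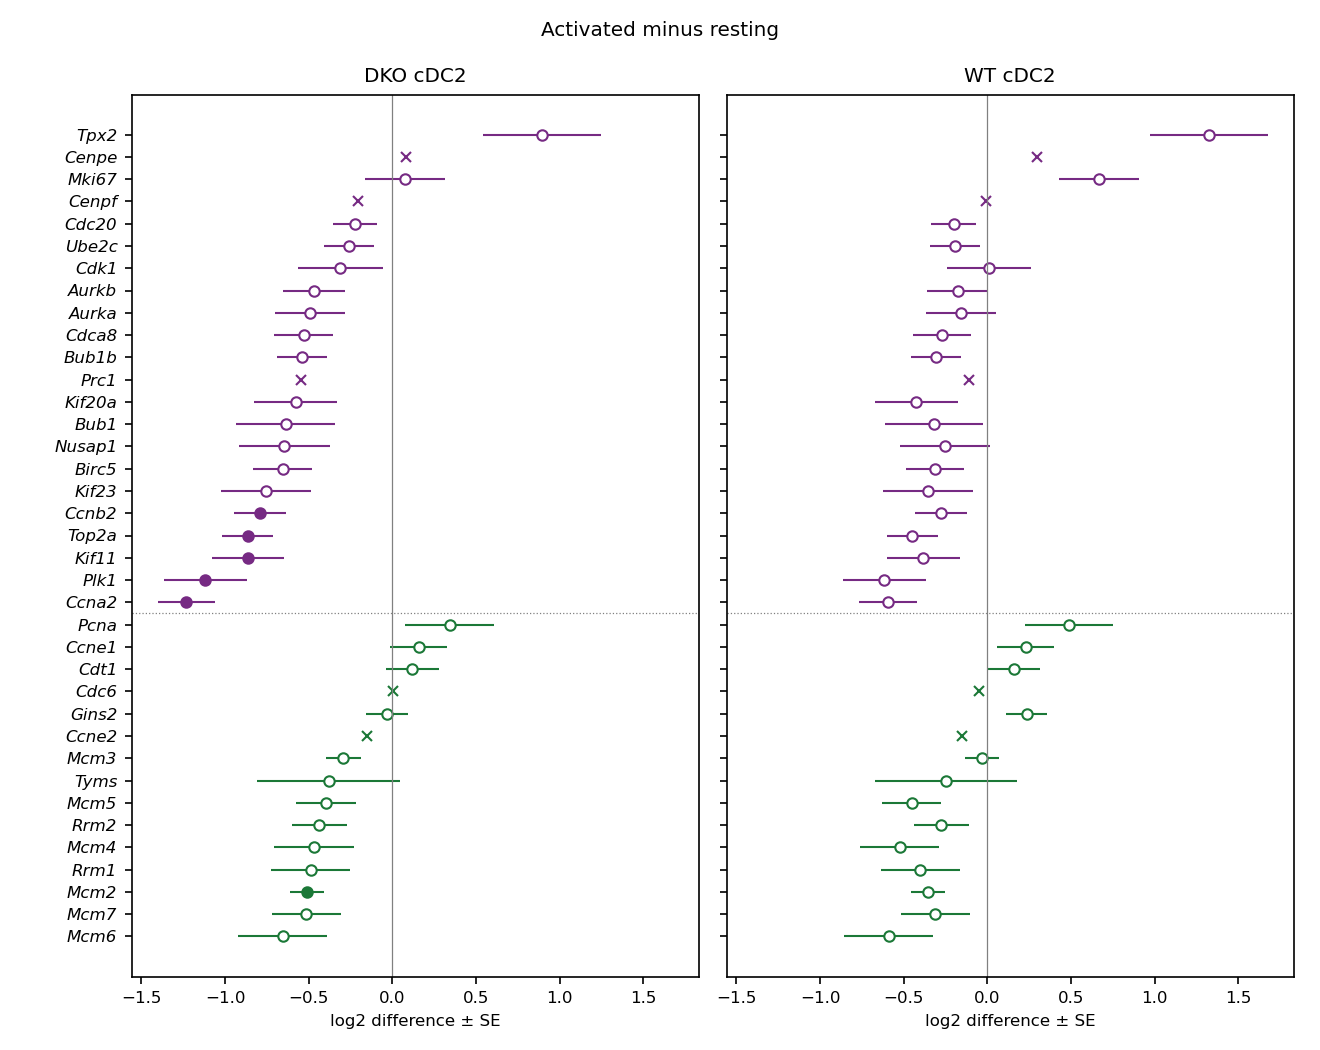
Difference between activated and resting cDC2 for each measured member in DKO (left) and WT (right), in log2 units with its SE, 2 arrays against 2; purple, mitosis genes; green, replication genes; filled, past the threshold; open, tested and not past it; crosses, not tested. In DKO, Ccna2 (-1.23) and Plk1 (-1.12) lie lowest, and Tpx2 (1.32 in WT) lies highest in both panels.

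Whether the responses differed between the genotypes was tested by the interaction. By limma, 0 of 10728 genes passed (0%), with 1 member, Ccna2, lower at an unadjusted p below 0.05, as were 0.531% of all genes. Its DKO response was lower than its WT response by 0.64 ± 0.24 on the log2 scale (interaction -0.64, adjusted p = 1.0). Ccnb2 stood at -0.52 ± 0.22 and Top2a at -0.42 ± 0.22. The median was -0.34 for mitosis and -0.09 for replication genes, against 0.0039 over all genes tested. All 22 measured mitosis genes had a value below 0, yet the median moved to -0.06 without DKO resting replicate 2 and to -0.58 without DKO resting replicate 1. The same DKO resting arrays enter the activation difference in DKO and the resting difference between genotypes.

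Some regulators of G1 and G0 changed on activation. In both genotypes the atypical cyclin Ccng2 rose, by 2.06 ± 0.27 in WT and 2.02 ± 0.27 in DKO, and so did the inhibitor p27 (Cdkn1b), by 0.62 ± 0.12 and 0.87 ± 0.12. Cdk4, the kinase of D-type cyclins, fell by 0.93 in WT and 1.01 in DKO, Cdk2, the partner of cyclin E, by 0.91 and 0.94, Rb1 by 0.87 and 0.96, and Fbxo5 by 0.94 and 1.37. Of the 38 such regulators tested, 2 rose and 6 fell in WT, and 3 rose and 6 fell in DKO. Over all genes, 3.97% rose and 6.57% fell in WT, and 5.82% rose and 7.90% fell in DKO, so the counts of rises were near the background. Their medians were 0.01 and -0.07. These comparisons within WT and within DKO share no arrays, but they share the fit and its estimate of the spread. Arrays of the same replicate number also deviated together, as given below.

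Among 33 other mitosis genes, 2 fell in WT, the centromeric histone Cenpa (-1.40 ± 0.30) and Mad2l1 (-0.77 ± 0.14). In DKO 6 fell, led by Cenpa (-1.51 ± 0.30), separase (Espl1, -1.13 ± 0.15), Mad2l1 (-1.05 ± 0.14) and the kinesin Kif15 (-0.75 ± 0.15), and 1 rose, the centriole kinase Plk4 (0.62 ± 0.15). Of 27 other replication genes, Prim1 alone fell in WT (-0.55 ± 0.10), and Gins3 (-0.75 ± 0.19), Prim1 (-0.56 ± 0.10) and Dbf4 (-0.53 ± 0.13) fell in DKO, with 0 rising in either. The list medians were -0.15 and -0.36 for mitosis and -0.20 and -0.26 for replication genes, WT before DKO. Set against the 6.57% of all genes that fell in WT, the WT counts of both lists were no more than the background. In DKO, 7.90% of all genes fell and 5.82% rose, so the count of other replication genes that fell was not far above the background.

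DKO and WT cDC2 were compared at rest to ask which members depend on BATF and BATF3. By limma, 0 of 32 members passed, where 2 of 10728 genes (0.0186%) did. At an unadjusted p below 0.05, 9 members, all mitosis genes, were higher in DKO, as were 3.58% of all genes. Top2a read 6.55 and 6.86 in DKO against 5.88 and 6.06 in WT, a difference of 0.73 ± 0.15 (1.66-fold, adjusted p = 0.418). Ccna2 read 7.07 and 7.35 against 6.34 and 6.63, a difference of 0.72 ± 0.17 (adjusted p = 0.482), and Kif11 5.88 and 6.04 against 4.91 and 5.42, 0.80 ± 0.22 (adjusted p = 0.582). The DKO arrays lay above both WT arrays for each of them.

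The median difference at rest was 0.48 for mitosis and 0.04 for replication genes, against 0.01 over all genes tested. Both DKO arrays lay above both WT arrays for 15 of 22 mitosis and 3 of 15 replication genes (Ccne1, Mcm2 and Tyms), and for 14.3% of all genes. Tpx2 was the mitosis gene below 0, at -0.12, with overlapping arrays. In the other direction stood Cdt1, at 6.31 and 5.98 in DKO against 6.37 and 6.47 in WT (-0.28 ± 0.16, adjusted p = 0.928), and Mcm6 (-0.31 ± 0.27, adjusted p = 1.0), whose arrays overlapped. Mcm4, Rrm1 and Pcna lay within 0.02 of 0.

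The size of the mitosis difference depended on the array left out. Its median was 0.14 without DKO resting replicate 2, 0.80 without DKO resting replicate 1, 0.35 without WT resting replicate 1 and 0.61 without WT resting replicate 2, the array with high interferon genes. Between arrays of the same number the gap was present at each number. With each gene set to its own mean, mitosis genes averaged 0.03 in DKO against -0.37 in WT at replicate 1. At replicate 2 they averaged 0.48 against -0.055. With the replicate number as a block Ccna2 passed (adjusted p = 0.0380), and 0.317% of all genes were called higher. Several marker lists differed beside this. The 5 plasmacytoid DC markers averaged 7.38 and 7.64 on the DKO resting arrays and 7.84 and 8.24 on the WT resting arrays. Their median difference was -0.67, with 4 below 0 and 1, Ly6d, above it. The 6 macrophage markers averaged 6.94 and 6.72 against 7.06 and 7.23, with a median of -0.54. Of these, 4 were lower without overlap. Spic was higher without overlap, at 9.56 and 9.08 against 8.86 and 8.48. The 4 of 5 monocyte markers measured averaged 6.18 and 6.35 against 6.76 and 6.46, with a median of -0.35. The averages and medians of these 3 lists were thus lower in DKO at rest, though not each of their genes was. The precursor list, in the other direction, averaged 6.42 and 6.47 on the DKO resting arrays and 6.33 and 6.22 on the WT resting arrays. Kit read 8.73 and 8.60 against 8.52 and 8.11, and Flt3 8.45 and 9.25 against 8.19 and 8.72, with overlap. The 7 cDC1 markers averaged 6.02 and 5.74 against 6.23 and 6.05, with Xcr1 and Clec9a below 5 on all of these arrays, and the cDC1 list was thus not the higher in DKO. The part of these lists in the result was not tested.

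After activation the genotypes lay closer in the median of the mitosis genes, though not for every member. By limma 0 of 32 members passed, while 2 of 10728 genes (0.0186%) did. At an unadjusted p below 0.05 there were 0 members, against 5.95% of all genes. Medians were 0.14 for mitosis and -0.03 for replication genes, and the DKO arrays lay above both WT arrays for 11 of 22 mitosis and 0 of 15 replication genes, and for 13.0% of all genes. Top2a read 5.99 and 5.69 in DKO against 5.54 and 5.51 in WT (0.32 ± 0.15, adjusted p = 0.886). Birc5 read 6.26 and 6.26 against 5.95 and 5.97 (0.30 ± 0.17, adjusted p = 0.951), and Cdc20 6.23 and 6.23 against 5.92 and 6.09 (0.23 ± 0.13, adjusted p = 0.954). Cdt1 (-0.32 ± 0.16), Mcm3 (-0.22 ± 0.10) and Mcm6 had both DKO arrays below both WT arrays. The share of all genes lying so was not counted. Tpx2 stood at -0.55 ± 0.35 with overlap.

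As a mean of both states, 0 members passed by limma, where 0.0186% of all genes did. At an unadjusted p below 0.05, 9 mitosis genes were higher and Cdt1 was lower, where 6.27% of all genes were higher and 4.51% lower. Top2a differed by 0.52 ± 0.11 (adjusted p = 0.175), Birc5 by 0.47 ± 0.12 (adjusted p = 0.245) and Kif11 by 0.56 ± 0.15 (adjusted p = 0.261). With the replicate number as a block, 5 mitosis genes were called higher in DKO, where 2.98% of all genes were: Top2a (adjusted p = 0.0407), Birc5 (0.0407), Kif11 (0.0457), Ccna2 (0.0290) and Nusap1 (0.0301). Cdt1, at -0.30 ± 0.11 (adjusted p = 0.401), did not pass in either fit. All 4 of its DKO arrays lay below all 4 WT arrays, with DKO between 5.98 and 6.31 and WT between 6.37 and 6.74. How many of all genes lay so was not counted.

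Pairs of the same replicate number show which members kept their sign. In all 4 pairs, 2 at rest and 2 activated, the DKO array was the higher for 11 of 22 mitosis and 3 of 15 replication genes (Mcm5, Rrm2 and Tyms), and for 11.8% of all genes. It was the lower in all 4 pairs for 0 mitosis genes and for 2 replication genes, Pcna and Cdt1. The share of all genes in that direction was not counted, so this is no result about the members. For Pcna the resting pairs differed by only -0.03 and -0.0009. Top2a differed by 0.67 and 0.79 in the resting and 0.45 and 0.18 in the activated pairs, and Nusap1 by 0.67, 0.90, 0.62 and 0.16. Birc5 differed by 0.52, 0.77, 0.31 and 0.29. For these the resting pairs showed the larger gaps. Mcm6 differed by 0.00 and -0.62 at rest and -0.05 and -0.70 after activation, so its gap lay in replicate 2.

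**Figure D5:**
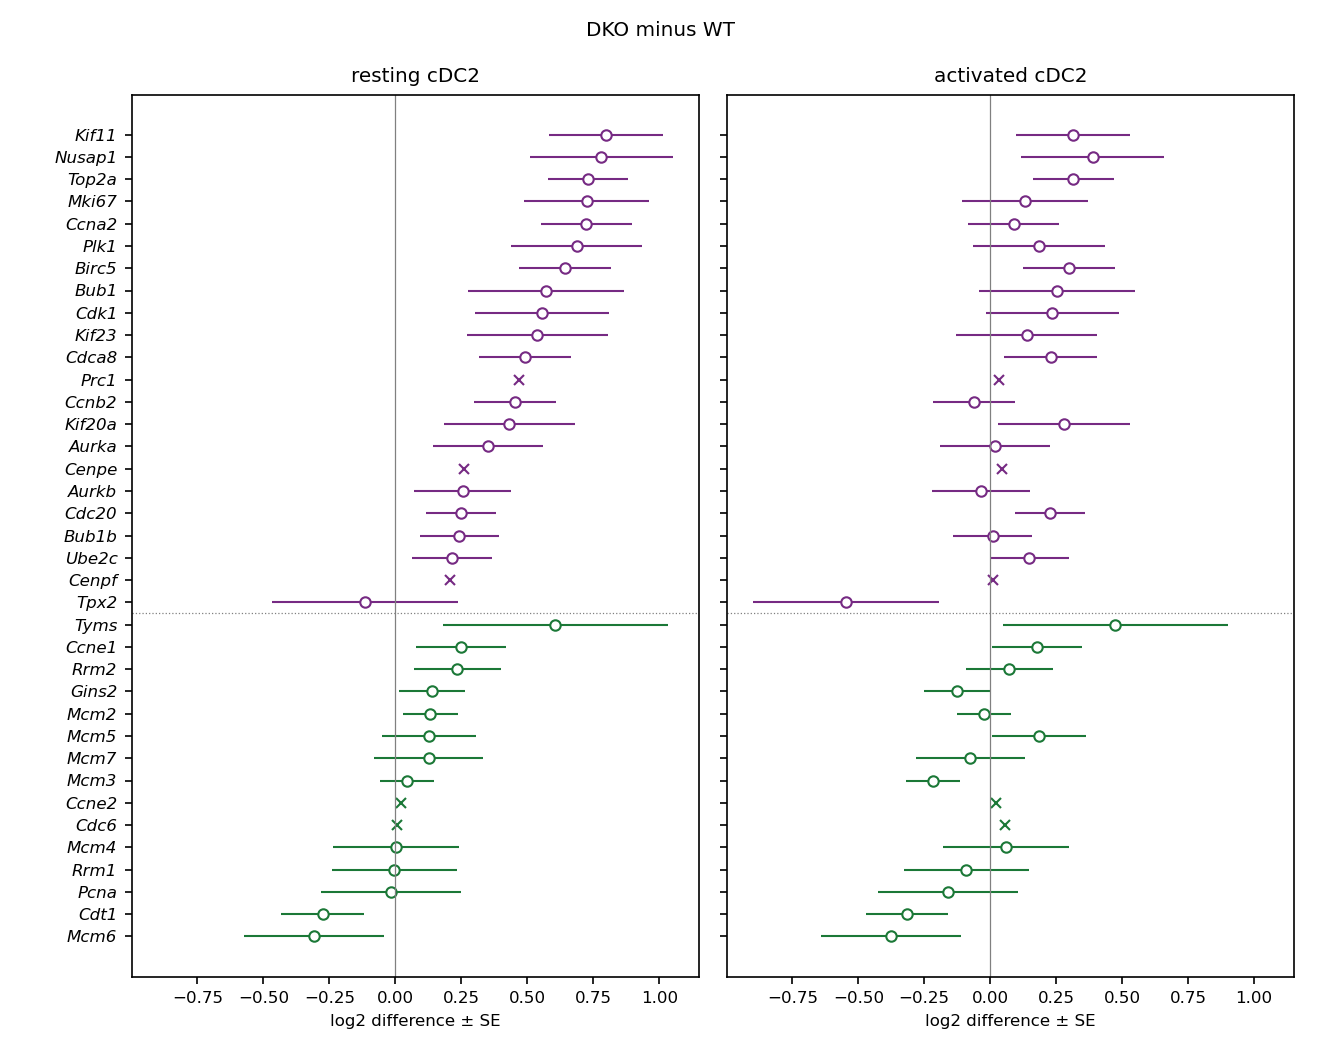
Difference between DKO and WT cDC2 for each measured member at rest (left) and after activation (right), in log2 units with its SE, 2 arrays against 2; purple, mitosis genes; green, replication genes; open, tested and not past the threshold; crosses, not tested. At rest 21 of 22 mitosis genes lie above 0, led by Kif11 (0.80), and no member passes in either panel.

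The other cell cycle lists gave 0 calls in every genotype comparison by limma. Their median differences at rest were 0.29 for other mitosis genes, with 47 of 49 measured above 0, 0.12 for other replication genes and 0.09 for G1 and G0 regulators. After activation they were 0.06, 0.06 and 0.02.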

How the data were processed

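Array values were made by the authors with RMA in Affymetrix Expression Console (background correction, normalization and 1 value per transcript cluster), per the submitters' processing notes, without versions. The genome build is not given in the sources used here. The deposited table holds linear intensity values, with array medians from 53.4 to 55.6, so log2 was taken first. After sorting, the log2 values of any arrays were within 0.31 of each other, so a difference in total RNA is not visible. Precision is limited by the number of arrays.

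Of 28853 clusters, 21789 carried 1 gene symbol in the platform annotation and were used, with the cluster of highest mean for the 999 genes with several. Genes with a group mean above the median of these clusters (5.94, or 61.3 before log2) for any group entered limma 3.58.1 under R 4.3.3 (two-sided; 1 fit of 5 group means over 9 arrays, 4 residual degrees of freedom; Benjamini-Hochberg over 10728 genes, threshold 0.05). The procedure was run on simulated data whose noise was independent between arrays. That simulation did not hold the joint deviation of same-numbered arrays described below. Groups and replicate numbers came from the sample titles. The members, the other lists and the tests were chosen with earlier results of these data known. Members named with values are those past the threshold, up to 8, or the 3 of smallest p in each direction, and the 4 of widest range in each list; the rest are given so that each member is accounted for.

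Replicate numbers pair the cDC2 arrays as far as the data show: the difference between replicate 2 and replicate 1 correlated across genes between every pair of groups, at 0.45 to 0.69. The labels do not say what the number marks, and the cDC1 array has none, so it entered the fit with the number as a block unpaired. The other alternatives were no filter or a stricter filter on dim clusters, quantile normalization, arrays centred on their medians, an offset of 16, the mean of a gene's clusters, a variance trend, cDC2 arrays alone, narrower lists, each array left out, and a filter on the mean over all arrays, added after seeing the data. Promoter windows are those of RefSeq.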

Additional observations from a re-analysis of the deposited data

How the results depend on the processing

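With 2 arrays a group, calls moved with single arrays, and the cause was not tested. With the replicate number as a block, 1 member was called higher in DKO at rest and 5 as the mean of both states, 3 higher and 7 lower on activation in WT, and 1 higher and 21 lower on activation in DKO; it also called 5 rather than 1 replication genes higher in cDC1, and changed no other count of members by over 1.5 times. A stricter brightness filter, which removes members, left 9 higher in cDC1 and 1 (Tpx2) higher on activation in WT, and quantile normalization also gave 1 there. An offset of 16 lowered the mitosis median in cDC1 to 1.22. Leaving out an array in turn, members called higher in cDC1 numbered 10 to 14, and those called lower on activation in DKO 0 to 6. The mitosis median then ran from 0.14 to 0.80 between resting genotypes, from -0.84 to -0.27 on activation in DKO and from -0.58 to -0.063 for the interaction. The replication median ran from 0.031 to 0.17, from -0.45 to -0.18 and from -0.22 to 0.022, and from -0.37 to -0.11 on activation in WT. Of the 37 members measured, values changed sign when an array was left out for 1 (Tpx2) in the cDC1 comparison, 10 and 20 between resting and activated genotypes, 7 as the mean of both states, 6 and 5 on activation in WT and DKO, and 17 in the interaction. Among the genes the naming rule picks these were Tpx2 (-0.52 to 0.29) and Mcm6 (-0.67 to 0.053) between resting genotypes, and Mcm4 (-0.22 to 0.33) and Mcm5 (-0.16 to 0.27) in the interaction. Of the values of single named genes under all alternatives, 615 kept direction and side of the threshold, 36 lost the call, 10 gained one and 10 changed sign. Dim genes near background carry little signal.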
